A study of Homo sapiens with 115 samples.

Results

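The proteasome subunit genes were read from the count table of single HCT116 cells by symbol: every entry whose name is PSMA, PSMB, PSMC, PSMD or PSME followed by digits only, without the interferon-inducible PSMB8 and PSMB9, without pseudogenes and without second copies of a name. This gave 41 genes of 43386 entries, of which 39 passed the filter on low counts. The cells are of HCT116, a human colorectal carcinoma line, in a p53+/+ form and a p53-/- form, each of them 1 isogenic line made by homologous recombination. The 72 p53+/+ and 43 p53-/- cells were picked singly under a microscope at 5 stages. N cells were taken on day 0 and are untreated by the study's methods, although the treatment label of every cell reads 8 Gy. P cells are radiation-tolerant persister (RTP) cells on day 7 after 8 Gy, before budding. B cells are RTP cells that were budding on day 10, S cells are the small cells budded from them on day 10, and R cells are the repopulated cells on day 30. By the labels, N held 6 p53+/+ and 7 p53-/- cells, P 6 and 11, B 28 and 8, S 21 and 9, and R 11 and 8. Cells of 1 stage and 1 line are not independent replicates of an irradiation, so raw counts were summed over them into 10 sums, 2 per stage, and the tests compare these sums.

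The proteasome is the protease that degrades proteins tagged with ubiquitin. Its core particle is a barrel of stacked rings, in which alpha subunits form the gate and some of the beta subunits carry the active sites. The regulatory particle caps the barrel: its base holds a ring of ATPases that unfold substrates and its lid removes the ubiquitin chain. Other caps, the activators, open the gate without ubiquitin, and in cells exposed to interferon some catalytic subunits are replaced by inducible ones. Genes of the core and of the regulatory particle are known to be transcribed together, among others by NFE2L1, a factor released when proteasome activity is short.

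Total counts per cell ranged from 4056329 to 100173192 with a median of 34238237, and the 41 genes took 0.813% to 2.95% of them. CPM, the counts of a gene per 1000000 counts of the cell or sum, is a share, so the amount of RNA per cell was not measured. The epithelial markers EPCAM, KRT8 and KRT18 had counts in every cell, while CDH1 had none in 4 cells and was at 11.1 to 72.7 CPM in the sums. The 4 markers of other cell types summed to 2.88 to 21.3 CPM over the 10 sums, with counts of PTPRC, which marks leukocytes, in 2 cells and of PECAM1, which marks endothelium, in 20. The mesenchymal markers VIM and COL1A1 had counts in 57 and 93 cells, at 0.498 to 16 and 2.10 to 8.79 CPM in the sums. The p53 target CDKN1A, used as a check of the labels, was at 79.6, 2612, 1853, 855 and 1297 CPM in p53+/+ and 76.3, 312, 605, 110.8 and 150.2 CPM in p53-/-, in the order N, P, B, S and R that is kept below. It was lower in p53-/- at every stage after 8 Gy. Single cells of the lines overlapped in B, S and R. There p53+/+ reached down to 145, 141 and 169 CPM and p53-/- up to 2146, 367 and 407 CPM. In P they did not overlap, with 921 CPM in the lowest cell of p53+/+ and 504 CPM in the highest of p53-/-. The study's text gives other numbers of cells per line than the labels, which were used for all sums. The p53 target MDM2 was at 38.1, 158, 102.6, 73.4 and 171 CPM in p53+/+ and 39.9, 63.1, 63.8, 41.7 and 62 CPM in p53-/-. It too was lower in p53-/- in P, B, S and R, whereas the N sums of the lines lay side by side.

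Per kilobase of transcript, which allows levels of different genes to be compared, the highest of the 41 over all cells were the core genes PSMB1, PSMB6, PSMA7 and PSMB5, at 1020.0, 909, 873 and 769 CPM per kilobase. Of the 12 highest, 11 were core genes, the other being the activator PSME2. The other 3 core genes, PSMA4, PSMB2 and PSMA5, ranked 24, 26 and 30. Their reference transcripts have 4378, 4426 and 3815 bases against a median of 1003.5 for the core. The lowest were the activator PSME4 at 4.79, the chaperone PSMD5 at 20.3 and the lid subunit PSMD3 at 37.2 CPM per kilobase. PSMA8, which replaces an alpha subunit in testis, had no count in any cell, and PSMB11, the catalytic subunit of thymus epithelium, had 54 counts in 7 cells. In the sums, 3 counts are worth 0.00336 to 0.0205 CPM, which is the level that a count of 0 still allows, for counting error only.

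**Figure D1:**
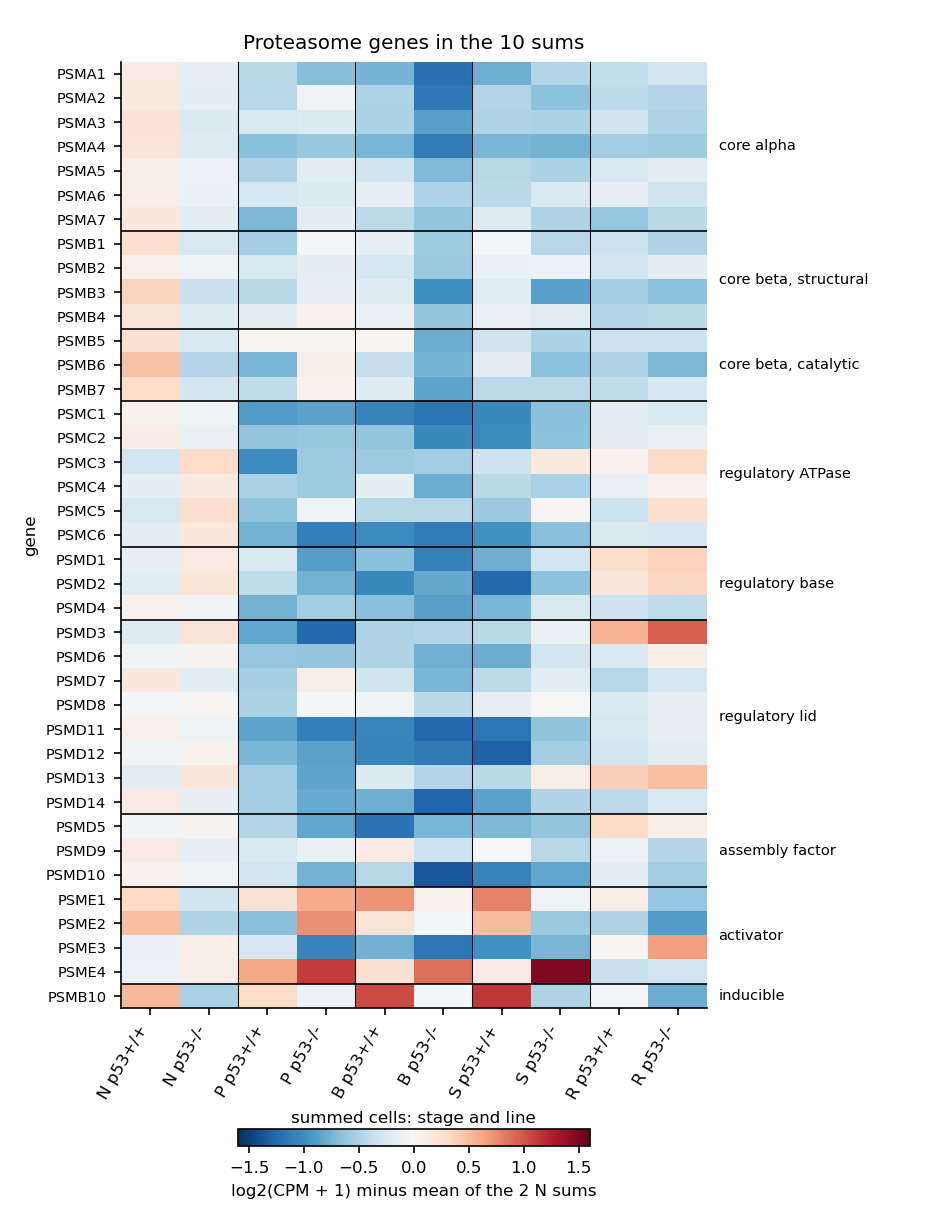
Colour gives log2(CPM + 1) of 39 proteasome genes in each of the 10 sums, minus the mean of the 2 N sums of that gene, ordered by role. Most regulatory particle genes are blue in P, B and S and near white or red in R, whereas core genes are blue in most sums after 8 Gy, R included.

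The regulatory particle had lower levels in P, B and S than in N and R in both lines, gene by gene short of the adjusted threshold given further on. The mean log2(CPM + 1) of its 17 genes was 8.54, 7.96, 7.98, 7.86 and 8.50 in the p53+/+ sums and 8.67, 7.94, 7.76, 8.27 and 8.66 in the p53-/- sums. All 6 sums of P, B and S thus lay below all 4 sums of N and R. Taken gene by gene, 10 of the 17 had this order without overlap, against 3.63% of the 19894 genes tested. The 10 were PSMC1, PSMC2, PSMC4 and PSMC6 of the ATPase ring, PSMD1 and PSMD2 of the base, and PSMD6, PSMD11, PSMD12 and PSMD14 of the lid. In the core, 2 of 14 genes had this order, PSMA1 and PSMA4. This count was made after the values had been seen. The N sum of p53+/+ leans on 1 deep cell, with 51580888 counts where the shallowest of the group had 12486187. That cell held 56.3% of the counts of PSMD2, 44.8% of those of PSMD1 and 44.5% of those of PSMC4 in the sum. Whether these genes keep the order without it was not tested.

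The regulatory particle means of single cells spread more widely in P, B and S than in N and R. The core particle means did so in p53-/- but not in p53+/+, where their SD was 0.491 in N and 0.321, 0.320 and 0.371 in P, B and S. The mean of the 17 genes ranged from 8.08 to 8.59, with a median of 8.51, in the N cells of p53+/+ and from 8.33 to 8.85, with a median of 8.59, in those of p53-/-. In B cells it ranged from 6.53 to 8.64, with a median of 7.94, in p53+/+ and from 6.05 to 8.08, with a median of 7.68, in p53-/-. The SD of the mean of the 17 genes over the cells of p53+/+ was 0.189, 0.454, 0.516, 0.609 and 0.0999, from N to R. For p53-/- it was 0.189, 0.615, 0.657, 0.415 and 0.152. The groups pool unequal numbers of name prefixes, the first digits of a cell's name: 2 in N, 1 and 3 in P, 9 and 6 in B, 8 and 7 in S and 1 in R, for p53+/+ and p53-/-. The P cells of p53+/+, of 1 prefix, had the wider spread too, and the part of the prefixes in the spread of the other groups was not tested. Below the lowest N cell of their own line lay 4 of 6 P cells, 19 of 28 B cells, 17 of 21 S cells and 0 of 11 R cells of p53+/+. In p53-/- it was 9 of 11 P cells, 8 of 8 B cells, 7 of 9 S cells and 0 of 8 R cells. Cells are not replicates of a stage, so no test was made on these counts. As deviations from the medians of their groups, the means of the 17 genes had a Pearson r of 0.179 with log2 total counts and of 0.0997 with the number of genes detected over all cells.

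**Figure D2:**
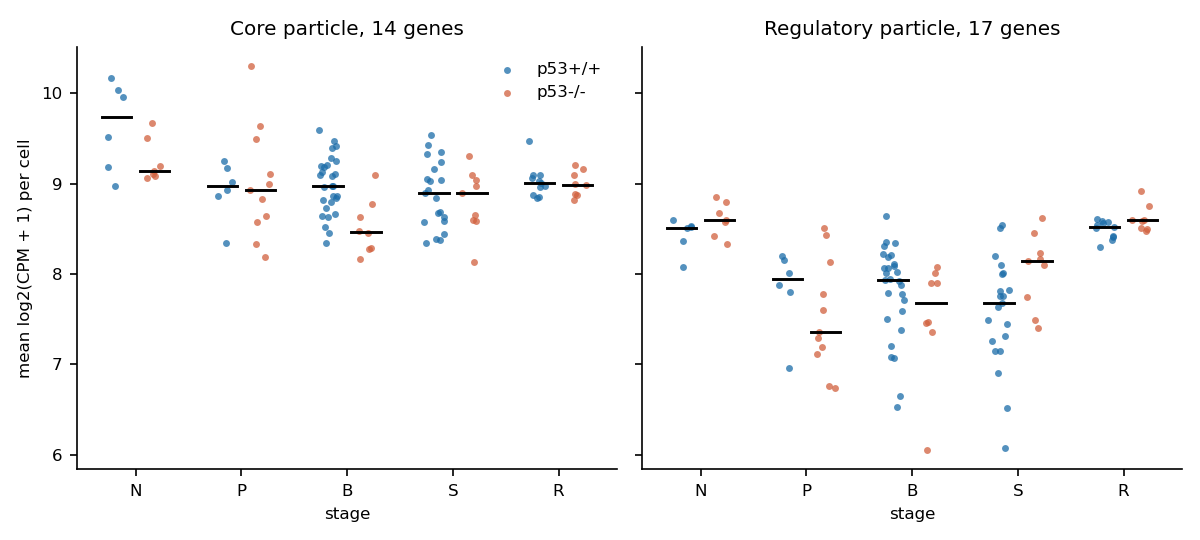
Each point is 1 cell, the y axis is the mean log2(CPM + 1) over the 14 core genes or the 17 regulatory particle genes, colours are the lines and bars are medians. Regulatory particle means of B and S cells reach down to 6.05 and 6.07, while no R cell lies below 8.30.

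Of the 6 ATPases, 4 had this order. PSMC1, an ATPase of the ring, was at 585, 296, 266, 272 and 495 CPM in p53+/+ and 533, 309, 248, 349.8 and 465.9 CPM in p53-/-. Over the cells of p53+/+, the lowest, median and highest levels were 477, 563 and 752 CPM in N and, in B, 33.3, 269 and 812.8. The sums of N and R lay above all others, though single cells of B reached the levels of N. PSMC6, an ATPase of the same ring, was at 179, 118.3, 99, 102.3 and 171 CPM in p53+/+ and 225, 93.4, 92, 126 and 166 CPM in p53-/-. PSMC3, another, was at 272, 165, 222, 264 and 350.2 CPM in p53+/+ and 408, 222, 226, 371 and 410.4 CPM in p53-/-. Here the S sum of p53-/- lay above the N sum of p53+/+, so the stages overlapped. PSMC5 was at 436, 334, 384, 346 and 412 CPM in p53+/+ and 627, 504, 386, 532 and 626 CPM in p53-/-, and was higher in p53-/- than in p53+/+ at all 5 stages. Of the remaining ATPases, PSMC2 and PSMC4 were between 212 and 522 CPM over the sums. In the non-ATPase part of the base, PSMD2, the scaffold that binds shuttle factors, was at 676, 584, 379, 327 and 877 CPM in p53+/+ and 892, 458, 442, 494 and 978 CPM in p53-/-. PSMD1, the other large scaffold, was at 306, 282, 210.5, 194 and 406 CPM in p53+/+ and 366, 181, 158, 270.5 and 432 CPM in p53-/-. Both had their highest sums in R. PSMD4, a ubiquitin receptor, was at 546, 309, 329, 315 and 417 CPM in p53+/+ and 504, 357, 288, 438 and 395 CPM in p53-/-, and there both R sums lay below both N sums.

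Among the 8 lid genes, PSMD11, a scaffold subunit, was at 477, 252, 217, 203 and 378 CPM in p53+/+ and 427, 211, 188, 288 and 412 CPM in p53-/-. Over the cells of p53+/+, its lowest, median and highest levels were 408, 472 and 599 CPM in N and, in B, 55.9, 221 and 672. PSMD14, the deubiquitinase of the lid, was at 685, 429.6, 362, 344 and 467 CPM in p53+/+ and 570.3, 357, 258, 447 and 527 CPM in p53-/-. Both had all sums of P, B and S below those of N and R. PSMD3 was at 74.9, 48.4, 61.5, 63.8 and 128 CPM in p53+/+ and 100.5, 36.2, 62.2, 79.5 and 169 CPM in p53-/- and reached its highest levels in R. The other 5 lid genes were between 164 and 751 CPM over the sums. Of the 8, PSMD8 had the smallest difference between B and N. The deep N cell of p53+/+ described above, with the name prefix 1115, held 63.6% of the counts of PSMD3 in its sum, beside 56.3% of those of PSMD2.

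The core genes lay below N of their line in 7 of the 8 sums after 8 Gy, R included, the exception being P of p53-/-. Their mean log2(CPM + 1) was 9.65, 9.02, 9.10, 9.08 and 9.03 in the p53+/+ sums and 9.22, 9.28, 8.62, 8.95 and 9.02 in the p53-/- sums. Of the catalytic subunits, PSMB5, which carries the chymotrypsin-like site and is bound by bortezomib, was at 1090.4, 931, 937, 738 and 728 CPM in p53+/+ and 773, 933, 529, 647 and 723 CPM in p53-/-. PSMB6, with the caspase-like site, was at 1316, 574, 742, 842 and 681 CPM in p53+/+ and 692, 1028, 567.7, 608 and 579.6 CPM in p53-/-. PSMB7, with the trypsin-like site, was at 908, 559, 643, 557 and 563 CPM in p53+/+ and 608, 772, 413, 554 and 616 CPM in p53-/-. All 3 had their highest sum in N of p53+/+ and their lowest in B of p53-/-, and in p53-/- the sums of all 3 were higher in P than in N. Single cells of p53-/- had another order. Their median core mean was 8.93 in P and 9.14 in N, and 7 of 11 P cells lay below the lowest N cell. PSMB5 had a cell median of 621 CPM in P and 747 CPM in N of this line. The highest core means of these P cells, 10.30 and 9.64, were of cells with the name prefix 1206.

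Of the structural beta subunits, PSMB2 was at 617, 487, 478, 539.9 and 470.2 CPM in p53+/+ and 549.7, 524, 385, 544 and 523 CPM in p53-/-. PSMB4 was at 524, 409, 421, 419 and 326 CPM in p53+/+ and 391, 471, 292, 399.6 and 335 CPM in p53-/-. PSMB3 was at 572, 332, 388, 390.2 and 309 CPM in p53+/+ and 348, 407, 223, 244 and 282 CPM in p53-/-. The table holds a second entry of the name PSMB3 whose CPM was 241 to 618 over the sums, so reads of this gene may have been split and its values are uncertain. PSMB1, the fourth, was between 715 and 1266 CPM. Of the alpha subunits, PSMA1 was at 807.8, 540.4, 439.9, 427 and 564 CPM in p53+/+ and 675, 458, 322, 532 and 605 CPM in p53-/-. PSMA4 was at 1067, 579, 557, 552 and 624 CPM in p53+/+ and 796, 603, 425, 547 and 621 CPM in p53-/-. These 2 core genes had all sums of P, B and S below those of N and R. PSMA2 was at 933, 609, 595, 605 and 622 CPM in p53+/+ and 748, 803, 376, 528 and 606 CPM in p53-/-. PSMA3 was at 645, 460.2, 387, 395 and 439 CPM in p53+/+ and 469, 472, 299.9, 389 and 389.9 CPM in p53-/-. Both had higher levels in P of p53-/- than in B of either line. PSMA5, PSMA6 and PSMA7 were between 250.2 and 1218 CPM over the sums. PSMA3 and PSMD6 have antisense genes (PSMA3-AS1 and PSMD6-AS2), whose reads cannot be told apart without strand.

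The difference between core and regulatory particle, core minus regulatory in mean log2 CPM, differed between the stages. It was 1.10, 1.06, 1.13, 1.22 and 0.53 in the p53+/+ sums and 0.55, 1.34, 0.86, 0.67 and 0.36 in the p53-/- sums. The means over both lines with their SD (n = 2) were 0.82 ± 0.39 for N, 1.20 ± 0.20 for P, 0.99 ± 0.19 for B, 0.95 ± 0.39 for S and 0.45 ± 0.12 for R. In these sums, only the values of R lay below those of every other stage in both lines. The values of B and S of p53+/+ and of P of p53-/- lay above both N sums, and the other 3 values of P, B and S lay between them. Single cells gave medians of 1.23, 1.06, 1.08, 1.14 and 0.52 in p53+/+ and 0.47, 1.23, 0.82, 0.86 and 0.35 in p53-/-. Per kilobase of transcript, the core genes had on average 3.7, 3.44, 3.65, 3.96 and 2.51 times the level of the regulatory genes in p53+/+ and 2.43, 4.06, 3.04, 2.57 and 2.16 times in p53-/-. The 2 widest gaps of all cells, 2.95 and 2.88, were those of 2 P cells of p53-/- that share the name prefix 1206. Without the cells of this prefix, an alternative added after the data were seen, the gap of P in p53-/- was 0.95 instead of 1.34. With N sums made only from cells of prefix 1115, also added after the data were seen, the gap of N was 0.44 in p53+/+ and 0.33 in p53-/-. These values lay below those of R in each line, so that R was not the lowest stage there.

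Whether the stages differ from N was tested with edgeR's quasi-likelihood test on the 10 sums, with Benjamini-Hochberg adjustment over all genes tested. None of the 39 genes passed an adjusted p of 0.05 in any of the 8 stage comparisons or in the comparison of the lines (0.206% of all genes). Of all genes tested, 0.658% passed in B against N, 0.281% in R against B, 0.0704% in S against N, 0.0201% in P against N and also in R against S, and 0% in R against N, B against P and S against B. At an unadjusted p below 0.05, 18 members were lower in B than in N and 0 were higher, where 9.16% of all genes were lower and 9.37% higher. In P against N it was 15 lower and 0 higher (4.9% of all genes lower, 7.01% higher). In S against N it was 10 lower, where 5.49% of all genes were lower, and 1 higher, where 7.84% were higher. In R against N it was 1 lower and 0 higher, beside 4.13% and 4.47% of all genes. With the cell line as a block, which pairs the sums of the stages, 3 members passed in B against N, where 3.4% of all genes did. DESeq2, the other tool run, called 5 members lower in P, 11 in B and 2 in S against N, where it called 1.26%, 5.18% and 1.54% of all genes lower. The 3 members of the blocked fit were PSMD11, PSMC1 and PSMC6, with adjusted p of 0.0417, 0.0348 and 0.0421 in edgeR.

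The sizes of the differences were as follows. In B against N, PSMD11 had a log2 difference of -1.26 ± 0.28 (SE, edgeR, adjusted p = 0.073). PSMC1 had a log2 difference of -1.22 ± 0.26 (SE, edgeR, adjusted p = 0.0641). PSMC6 had a log2 difference of -1.18 ± 0.27 (SE, edgeR, adjusted p = 0.0759). These were lower in B in both lines. PSMD12, PSMD14, PSMD2, PSMA1 and PSMA4 had log2 differences of -1.20, -1.10, -1.04, -1.05 and -1.02. All 17 regulatory genes and all 14 core genes were below 0 in B against N, as were 42.8% of all genes. The median was -0.86 for the regulatory particle and -0.62 for the core, beside 0.20 for all genes tested. In P against N the medians were -0.81 and -0.42, beside 0.15 for all genes, and PSMD3 had the largest difference of the members at a log2 difference of -1.19 ± 0.29 (SE, edgeR, adjusted p = 0.284). In S against N they were -0.52 and -0.44, beside 0.15. In R against N they were -0.30 and -0.60, beside 0.024, and PSMA4 was the 1 member at an unadjusted p below 0.05, with a log2 difference of -0.75 ± 0.30 (SE, edgeR, adjusted p = 0.563). These comparisons share the N sums. For the catalytic PSMB5, PSMB6 and PSMB7, the log2 differences of B against N were -0.42 ± 0.37, -0.72 ± 0.43 and -0.61 ± 0.36 (SE), with adjusted p of 0.599, 0.412 and 0.405 by edgeR.

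**Figure D3:**
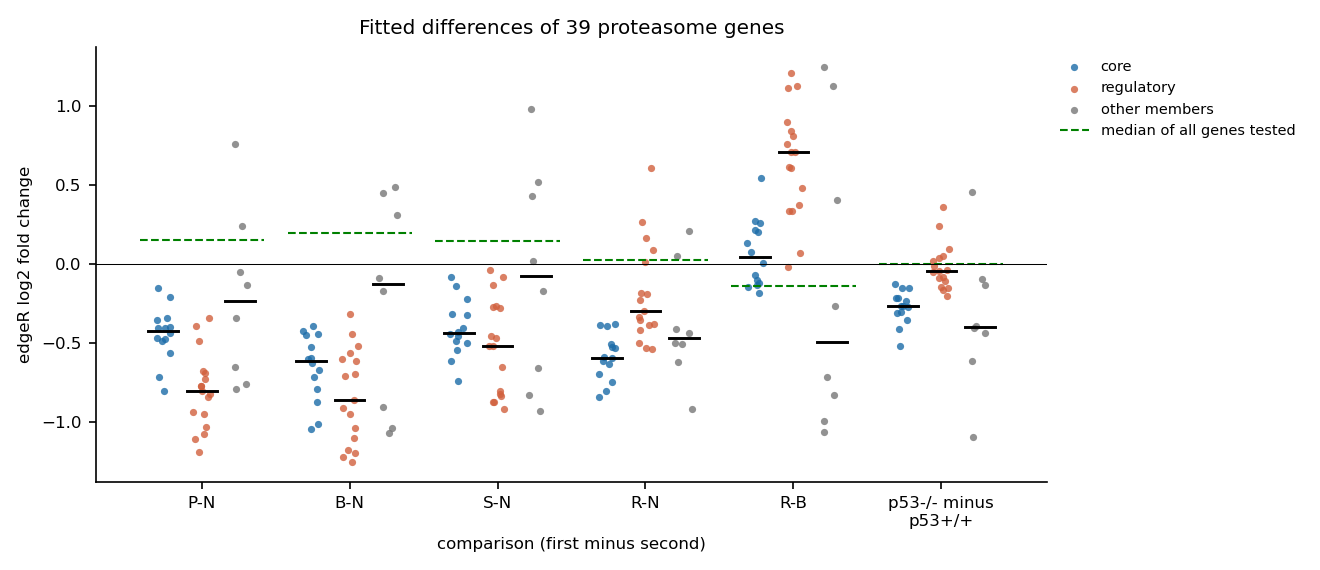
The y axis is the edgeR log2 fold change of 39 proteasome genes in 6 comparisons, each point is 1 gene, bars are medians of the group and the dashed line is the median of all genes tested. The regulatory genes lie lowest in B against N, with a median of -0.86, and highest in R against B, with a median of 0.71.

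The core genes differed between the N cells themselves. Of the 13 N cells, 10 share the name prefix 0109 and 3 share 1115. Prefix 1115 is the 1 prefix that N shares with another stage, P, and no stage shares a prefix with R, so that stage and prefix cannot be told apart in the other comparisons with N. What the prefix stands for is not given in the labels. Core means were 9.18 to 10.17 in the 5 N cells of p53+/+ with prefix 0109 and 8.97 in the 1 cell with prefix 1115. In p53-/- they were 9.06 to 9.67 in 5 cells and 9.09 to 9.10 in 2 cells. The regulatory means of the same N cells were 8.08 to 8.59 and 8.54 in p53+/+, and 8.33 to 8.79 and 8.68 to 8.85 in p53-/-. Within prefix 1115, the core mean of P minus N was 0.043 in p53+/+ (6 cells against 1) and 0.12 in p53-/- (3 cells against 2), while the regulatory mean was -0.58 and -0.57. The median of all genes within the prefix was 0.12 and 0.05. With the N sums made only from cells of prefix 1115, an alternative added after the data were seen, the core median against N was 0.18 for P, -0.03 for B, 0.19 for S and -0.021 for R. The regulatory median was -0.76, -0.79, -0.44 and -0.10, beside medians of all genes of 0.44, 0.49, 0.44 and 0.26. With these N cells the core medians were thus near or above 0, though still below the median of all genes at each stage, and the regulatory medians of P and B stayed below 0. With the N cells of prefix 0109 only, also added after the data were seen, the core median was -0.72 in P and -0.84 in B, and the regulatory median -0.78 and -0.83. The prefix 1115 N sums rest on 1 cell of p53+/+ and 2 of p53-/-.

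**Figure D4:**
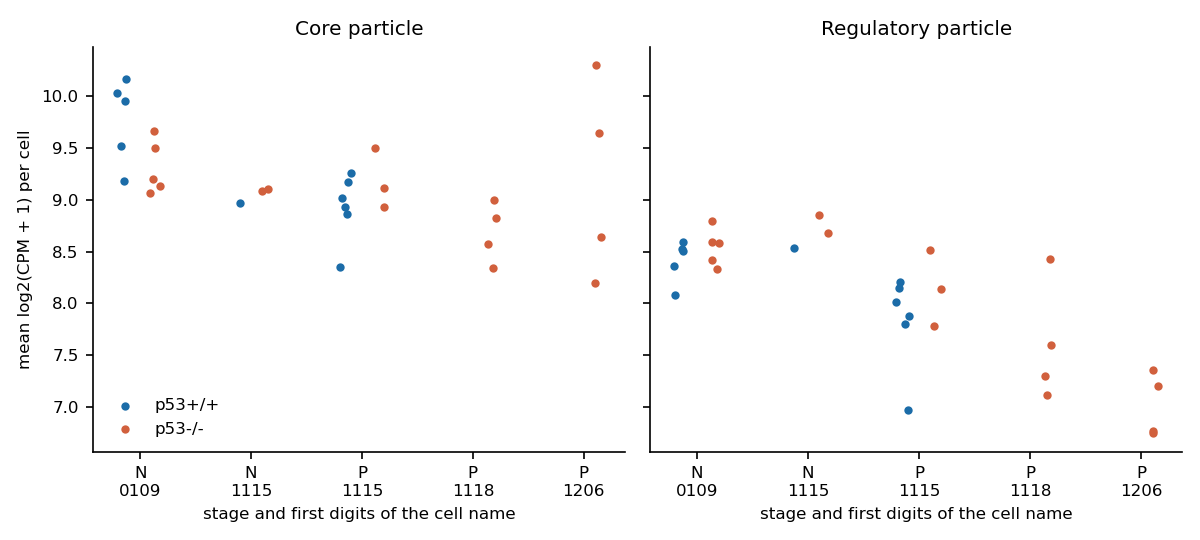
Each point is 1 cell of N or P, the y axis is the mean log2(CPM + 1) of the core or regulatory particle genes and the x axis gives the stage with the first digits of the cell's name. The highest core means are 10.30 in a P cell of prefix 1206 and 10.17 in an N cell of prefix 0109, whose N cells reach from 9.06 upwards and overlap those of prefix 1115, while regulatory means of 12 of the 17 P cells lie below those of all N cells.

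Between the stages after 8 Gy, no member reached an unadjusted p of 0.05 in B against P or in S against B, where 5.18% and 4.19% of all genes did in either direction. In B against P the medians were -0.10 for the regulatory particle and -0.22 for the core, beside 0.017 for all genes, and the lines differed in sign, with core medians of 0.24 in p53+/+ and -0.67 in p53-/-. In S against B, 38 of 39 members had differences above 0, with medians of 0.33 and 0.27, beside 0.0068 for all genes. By line, the regulatory medians of S against B were -0.0042 in p53+/+ and 0.66 in p53-/-. Within the 11 combinations of line and name prefix that hold both B and S cells, the regulatory mean of S lay above that of B in 8, between -0.85 and 1.34, and the core mean in 7, between -0.92 and 0.75. A fit within these prefixes called 0 members, and 0% of the 14685 genes that it tested.

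In R against B no member passed the adjusted threshold, while 11 members were higher at an unadjusted p below 0.05, where 9.03% of all genes were higher, and 1 was lower, where 9.55% were lower. The 11 comprised 9 regulatory genes, PSMD5 and PSME3, and the 1 lower gene was PSME4. PSMD3 had a log2 difference of 1.21 ± 0.29 (SE, edgeR, adjusted p = 0.0826). PSMD2 had a log2 difference of 1.13 ± 0.28 (SE, edgeR, adjusted p = 0.0859). PSMD1 had a log2 difference of 1.11 ± 0.33 (SE, edgeR, adjusted p = 0.125). The medians were 0.71 for the regulatory particle, 0.04 for the core and -0.14 for all genes. DESeq2 called 7 members higher in R against B (4.73% of all genes), and in R against S PSMD2 higher and PSME4 lower (2.23% and 4.77%). With the line as a block PSMD5 passed, with an adjusted p of 0.0478 in edgeR, where 3.09% of all genes passed. In R against S, 4 members were higher (6.11% of all genes) and 1 was lower (9.01%), and the medians were 0.39, -0.11 and -0.079. The higher members were PSMD2, PSMD3, PSMD5 and PSME3. R shares no name prefix with B or S, so stage and prefix cannot be told apart in these comparisons either.

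Transcript length differed between the 2 particles: the core genes have a median of 1003.5 bases and the regulatory genes of 1754. In R against B, genes of under 1000 bases had a median of -0.71 over 805 genes and those from 2000 to under 4000 bases one of 0.18 over 4918, while the members of these classes had -0.14 (10 genes) and 1.00 (10 genes). In B against N the same classes had 0.34 and -0.027, and the members -0.53 and -0.996. The part of transcript length in the difference between the particles was not tested.

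Of the 3 assembly factors of the base, which chaperone the ATPases and are not in the finished particle, PSMD5 was at 92.5, 68.4, 41.6, 57.2 and 117.8 CPM in p53+/+ and 98.2, 53.1, 56.8, 61.4 and 102.1 CPM in p53-/-. PSMD10, known as gankyrin, was at 196, 154, 137, 89.4 and 169 CPM in p53+/+ and 181, 110.7, 73, 105.4 and 128 CPM in p53-/-. PSMD9 was at 176, 135, 177, 162 and 150.4 CPM in p53+/+ and 147, 148, 128, 118.6 and 116.4 CPM in p53-/-. PSMD5 had an order like that of the regulatory particle, with a log2 difference of -1.07 ± 0.26 (SE, edgeR, adjusted p = 0.0872) in B against N and a log2 difference of 1.12 ± 0.26 (SE, edgeR, adjusted p = 0.0799) in R against B. In the N sum of p53+/+, the 1 cell of prefix 1115 held 59.0% of the counts of PSMD5, and the order without this cell was not tested. PSMD9 had no such order, since its B sum of p53+/+ was as high as its N sum.

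The activators and the inducible subunit had other orders than the 2 particles, PSME3 excepted. PSME1 and PSME2, the alpha and beta subunits of the interferon-inducible activator, are neighbours on chromosome 14 (GRCh38 chr14:24136163-24138967 and chr14:24143362-24147570). PSME1 was at 331, 312, 438, 461 and 286 CPM in p53+/+ and 213, 403, 278, 253 and 173 CPM in p53-/-. PSME2 was at 552, 247, 457, 559 and 283 CPM in p53+/+ and 282, 654, 388, 259.9 and 212 CPM in p53-/-. Neither had lower levels in P, B and S as a group, and both had their lowest sums in R of p53-/-. PSMB10, an inducible catalytic subunit, was at 114.5, 97.9, 166, 178 and 78.8 CPM in p53+/+ and 55.5, 74.9, 78.5, 57.1 and 45.6 CPM in p53-/-, with p53+/+ above p53-/- at all 5 stages. In single cells of p53-/- its lowest, median and highest levels in S were 3.85, 42.7 and 212 CPM. In the B sum of p53-/-, 1 cell held 46.4% of the counts of PSME2 and 37.9% of those of PSMB10. The levels of that sum without this cell were not tested.

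**Figure D5:**
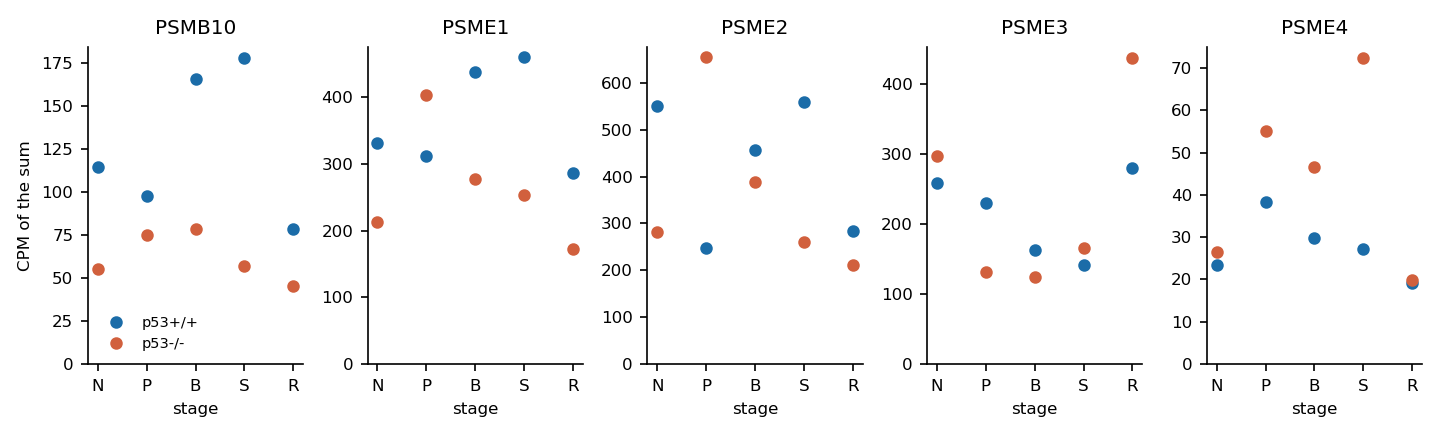
The y axes give CPM of the 10 sums from 0, the x axes the stages, and colours the lines, for the inducible PSMB10 and the 4 activators. PSME3 is lowest and PSME4 highest in P, B or S, and PSMB10 is higher in p53+/+ at every stage.

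PSME3, the subunit of a nuclear activator, was at 258, 230.2, 163, 142 and 280.2 CPM in p53+/+ and 297, 131, 124, 166 and 437 CPM in p53-/-, with all 6 sums of P, B and S below those of N and R. It had a log2 difference of -1.04 ± 0.36 (SE, edgeR, adjusted p = 0.174) in B against N and a log2 difference of 1.25 ± 0.36 (SE, edgeR, adjusted p = 0.124) in R against B. The 1 cell of prefix 1115 held 48.1% of the counts of PSME3 in the N sum of p53+/+, and the order without this cell was not tested. PSME4, which encodes the activator PA200, known for roles in histone turnover and DNA repair, was the 1 member with the opposite order. It was at 23.3, 38.3, 29.8, 27.3 and 19.2 CPM in p53+/+ and 26.6, 55, 46.7, 72.3 and 20 CPM in p53-/-, so all 6 sums of P, B and S lay above those of N and R, as they did for 5.22% of all genes. It had a log2 difference of 0.98 ± 0.40 (SE, edgeR, adjusted p = 0.341) in S against N and a log2 difference of -1.49 ± 0.41 (SE, edgeR, adjusted p = 0.159) in R against S. Its lowest, median and highest levels were 27.2, 54 and 161 CPM in S cells of p53-/- and 1.74, 23.1 and 41.1 CPM in R cells of that line, so that single cells overlapped.

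Interferon-stimulated genes, 14 in the list, were set beside PSMB10, PSME1 and PSME2 because these 3 are interferon-inducible. ISG15, a ubiquitin-like modifier, was at 269, 405, 3392, 2357 and 210.2 CPM in p53+/+ and 163, 2256, 7167, 579 and 341 CPM in p53-/-. In B against N it had a log2 difference of 4.45 ± 0.92 (SE, edgeR, adjusted p = 0.0598), and with the line as a block an adjusted p of 0.04. As deviations from the group medians over all cells, the mean of the 14 genes had a Pearson r of 0.437 with PSME1, 0.338 with PSME2 and 0.105 with PSMB10, which is a description of cells that share depth. The part of the interferon-stimulated genes in the levels of the 3 was not tested.

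In the comparison of p53-/- with p53+/+, stage was a term of the fit. At an unadjusted p below 0.05, 5 members were lower in p53-/- and 0 were higher, where 7% of all genes were lower and 6.91% higher. PSMB10 had the largest difference with a log2 difference of -1.10 ± 0.21 (SE, edgeR, adjusted p = 0.0674), and its p53-/- sum was lower at 5 of 5 stages. It was also the 1 member that DESeq2 called between the lines, where 4.12% of all genes were called lower. PSME1 had a log2 difference of -0.62 ± 0.22 (SE, edgeR, adjusted p = 0.238), lower at 4 of 5 stages. PSMB3, PSMD9 and PSMD10 had -0.52, -0.39 and -0.44, each lower at 4 of 5 stages. The core median was -0.27 and the regulatory median -0.049, beside -0.0047 for all genes, and all 14 core genes were below 0. With the N cells of prefix 1115 only, the core median was -0.15 and PSMB10 was the 1 member at an unadjusted p below 0.05, where 4.95% of all genes were lower. In R the lines share no name prefix, so line and prefix cannot be told apart there.

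Over the cells, members of 1 particle varied together more than members of different particles. As deviations from the medians of their groups in log2(CPM + 1) over all cells, pairs of core genes had a median Pearson r of 0.47, pairs of regulatory genes one of 0.40 and pairs across the particles one of 0.21. PSME1 with PSME2 had 0.72, and PSME3 had a median of 0.44 with the regulatory genes and 0.055 with the core genes. PSME4 had medians of 0.11 and -0.25. The cells of a pair share library and depth, so these values are a description.

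Of 31 other genes of the ubiquitin and proteasome pathway, all tested, 0 passed the adjusted threshold. At an unadjusted p below 0.05, 9 were lower and 2 higher in B against N, where 9.16% of all genes were lower and 9.37% higher. In R against B, 3 were lower and 7 higher, where 9.55% of all genes were lower and 9.03% higher. The deubiquitinases that dock on the regulatory particle, UCHL5 and USP14, had a log2 difference of -1.53 ± 0.36 (SE, edgeR, adjusted p = 0.0782) and -1.01 in B against N. USP14 was at 120.3, 116.3, 70.5, 67.2 and 164 CPM in p53+/+ and 136, 85.1, 66.4, 72.9 and 146 CPM in p53-/-. VCP, the ATPase that extracts ubiquitinated proteins from membranes and complexes, was at 268, 198, 205, 181 and 470.0 CPM in p53+/+ and 378, 152, 177, 221 and 413 CPM in p53-/-. VCP had a log2 difference of 1.14 ± 0.29 (SE, edgeR, adjusted p = 0.0912) in R against B. DDI2, the protease that activates NFE2L1, was at 21, 26, 9.18, 9.34 and 25 CPM in p53+/+ and 20.8, 9.48, 8.83, 8.17 and 26.5 CPM in p53-/-. For USP14 and VCP all sums of P, B and S lay below those of N and R. POMP, a chaperone of the core, was at 999, 469, 618, 771 and 487 CPM in p53+/+ and 693, 957, 736, 555 and 566 CPM in p53-/-, and did not separate the stages. NFE2L1 itself, the transcription factor, was at 15.4, 32.5, 31.3, 33 and 15.7 CPM in p53+/+ and 24.2, 50.5, 39.8, 25.4 and 25.9 CPM in p53-/-, with a log2 difference of 0.93 ± 0.38 (SE, edgeR, adjusted p = 0.392) in P against N, where 37 of 39 subunit genes were below 0.

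The promoters of the subunit genes were searched for the core of the antioxidant response element, TGACNNNGC, which NFE2L1 and NFE2L2 bind, and for the CCAAT box, on both strands, from 250 bases before to 50 after the start in RefSeq promoter sequences (GRCh38.p14). Of the 41 genes 36 had an entry, and 12 of these (33.3%) held TGACNNNGC, beside 16.1% of 27305 genes with a promoter entry. It was 5 of 16 regulatory genes and 2 of 10 core genes. CCAAT was held by 50% of the members and 39.7% of all genes. The stretches of 41 bases below show it in a core gene, in 2 lid genes with their lowest sums in P, B or S, in PSMD5, and in the activators PSME1 and PSME4, which did not have that order. They are given on the strand of the gene, 5′ to 3′, with the match in capitals. The matches lie upstream of the annotated gene. A match is a description of these letters and not a site of binding.
PSMB3, chr17:38752621-38752661 on the plus strand: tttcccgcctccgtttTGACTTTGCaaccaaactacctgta
PSMD12, chr17:67366718-67366758 on the minus strand: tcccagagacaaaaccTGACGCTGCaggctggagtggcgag
PSMD3, chr17:39980754-39980794 on the plus strand: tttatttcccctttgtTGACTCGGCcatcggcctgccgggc
PSMD5, chr9:120843032-120843072 on the minus strand: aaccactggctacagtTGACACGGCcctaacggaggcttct
PSME1, chr14:24136092-24136132 on the plus strand: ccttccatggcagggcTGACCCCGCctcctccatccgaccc
PSME4, chr2:53971003-53971043 on the minus strand: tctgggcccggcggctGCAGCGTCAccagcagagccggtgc
In PSME4 the capitals are the reverse complement of the motif. PSME4, with its high sums in P, B and S, was thus among the genes with a match.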

How the data were processed

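Single cells were lysed and amplified with a full-length cDNA kit without molecular identifiers or strand. After trimming by fastp the authors mapped reads on GRCh38 by HISAT2 2.0, with StringTie for expression; the tool that wrote the deposited raw counts per gene and cell is not given in the sources used here. The submitters' processing notes also name RSEM, Bowtie2 and DESeq2. The members and lists were chosen with earlier results of these data known. Cells were grouped by their labels, and deposited counts were summed per stage and line. Genes were kept with a minimum count of 10 by edgeR's filter and counts in at least 12 cells, which left 19894. Sums were scaled by TMM and tested with the quasi-likelihood test of edgeR 4.0.16 (R 4.3.3), two-sided, with stage as the term, or stage and line for the comparison of the lines. Adjusted p-values are Benjamini-Hochberg values over these genes, and values passed at 0.05. Each stage holds 2 sums, and nothing in the labels says that the cells of a line came from separate irradiations. The p-values of the stage comparisons without a block therefore measure the spread between the lines. With line in the fit, as a block or in the comparison of the lines, they measure how the line difference varied between the stages. The line pairs the sums: the line differences of the stages had correlations of 0.074 to 0.216, all 10 above 0. Means of log2 CPM used a pseudocount of 1. CPM were computed with Python 3.11.15 (numpy 2.4.6, pandas 2.3.3) and drawn with matplotlib 3.10.9. Values in full are given for the catalytic subunits, PSMD14, the inducible subunit, the activators, any member called, and the member of each role with the smallest p in B, S or R against N, B against P or the comparison of the lines; other members named in full were singled out after their values had been seen. The tests were tried on counts simulated with a narrower spread than these sums, whose common dispersion in edgeR was 0.56. The trial therefore does not show how many true or false calls arise at the spread of the data. Alternatives were DESeq2 1.42.0, other scalings and filters, sums per name prefix, cells thinned to 15435056 counts (103 cells kept), cells of some prefixes only (chosen after the data were seen), and leaving out each sum. The highest correlation between any pair of cells was 0.981, so no cell was taken as deposited in duplicate. Counting error only is covered by the 3-count limits.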

Additional observations from a re-analysis of the deposited data

Results flagged for a closer look

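Within the groups of 4 to 10 cells, a cell was singled out where its gap to the nearest other cell, as a share of the group's range, passed Dixon's 95% value. This held for 7 of 72 groups and measures, where chance gives about 1 in 20. Among P cells of p53+/+, replicate 5 had the lowest regulatory particle mean, 6.96 in log2 CPM, and the lowest level of the deubiquitinase PSMD14, 7.61 in log2 CPM. In the same group, replicate 3 stood apart in the activator PSME1 at 7.78 in log2 CPM and replicate 2, the cell with the most counts of all, in the activator PSME4 at 3.07 in log2 CPM. Among B cells of p53-/-, replicate 3 had the lowest regulatory particle mean of all cells, 6.05, and a core minus regulatory difference of 2.42. Among S cells of p53-/-, replicate 6 stood apart in PSME1 at 5.82 in log2 CPM. What sets these cells apart was not tested.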

How the results depend on the processing

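The causes of the shifts were not tested. The regulatory median of B against N moved by less than 1 SD of the lines in each alternative run. That SD comes from 2 lines that lay far apart, with medians of -0.57 in p53+/+ and -1.11 in p53-/-, so it is a wide limit. With the line as a block (replicate block), 3 members passed lower in B against N and 1 higher in R against B (3.4% and 3.09% of all genes in either direction); it changed no other call. With DESeq2, 5, 11 and 2 members passed lower in P, B and S against N, 1 higher and 1 lower in R against S, 7 higher in R against B and 1 lower in p53-/- (4.02%, 10.8%, 4.83%, 7%, 10.5% and 8.22% of all genes). Without a low count filter it was 1 lower in B against N, 1 lower in R against S, 1 higher in R against B and 1 lower in p53-/- (3.76%, 2.07%, 3.65% and 1.22%); with a minimum count of 100, 1 lower in p53-/- (0.797%). With sums per name prefix 2 passed lower in B against N (0.701%) and 8 in p53-/- (6.47%), and core medians were -0.37 in B and -0.14 in S against N. With thinned cells 1 passed lower in p53-/- (1.11%), and the medians were -0.95 (regulatory, P), -0.80 (core, B) and -0.68 (core, S). With library size as the only scaling, which shifted the median of all genes by up to 0.18, regulatory medians were -0.66 in P and -0.14 in R against N and 0.56 in R against S, and the core median of R against S was 0.074. With N cells of prefix 1115 only, 1 member passed lower in P (1.38%) and 2 in B (4.55%), the core medians were 0.18, -0.030, 0.19 and -0.021 in P, B, S and R, the regulatory median of R was -0.097, PSMB6 and PSMB5 were at 0.087 and 0.19 in B, and the core minus regulatory difference of N was 0.38. With N cells of prefix 0109 only, the core medians were -0.84 in B and -0.69 in S. Without prefix 1206, 1 passed lower in p53-/- (0.746%) and the regulatory median of P was -0.69. Per kilobase, the log2 ratio of the mean core level to the mean regulatory level was 1.58, 1.90, 1.74, 1.67 and 1.22 in N, P, B, S and R. It is a ratio of means and not a difference of mean log2 values, so it differs from the main measure in more than transcript length. Leaving out 1 sum gave -0.93 to -0.73 for the regulatory median of P against N, -1.06 to -0.24 for the core median of B against N, -1.05 to 0.014 for PSMB5 there, -0.69 to -0.031 for the core in S against N, -0.83 to -0.22 for the core in R against N and -0.040 to 0.62 for the core in S against B. Precision is limited by 2 sums per stage.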
